A study of Mus musculus with 4 samples.

Results

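The regions described here are 1 kb windows of the mouse genome whose CpG methylation was much lower in embryonic stem cells without Tet enzymes than in unmodified cells. Windows were cut on a fixed grid on chromosomes 1 to 19 and kept when at least 10 CpGs were listed in both methylation files. A window was a member when its mean CpG methylation was at least 30 percentage points lower in the knockout. Of 432421 windows with at least 10 CpGs, 348 were members, or 0.0805%. The same rule in the other direction found 4579 windows, or 1.06%. The size of this imbalance depended on the minimum of CpGs. With at least 5 CpGs per window 7677 were lower and 8122 higher, and with at least 15 CpGs 54 were lower and 2104 higher. Because only a window with at least 30% methylation in the unmodified cells could lose 30 points, the 382648 windows at or above that level are called eligible and serve as the background for place and level. Members were 0.0909% of them. The members were chosen by the difference between the libraries, so their differences are a description and were not tested.

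The cells were E14Tg2a mouse embryonic stem cells. The unmodified cells are called WT. The TetTKO cells carried CRISPR mutations of Tet1, Tet2 and Tet3. Per the labels, they came from E14 cells in 2i medium, which holds the inhibitors PD0325901 and CHIR99021, that were transfected with px330 guide vectors, selected with puromycin, picked as clones and screened for mutations. Mass spectrometry detected no 5-hydroxymethylcytosine in them, per the labels. How many clones the sequenced line came from is not given in the sources used here. Both lines were moved to medium with 15% serum and LIF for at least 17 days. Each genotype had 1 whole-genome bisulfite library and 1 RNA-seq library, so a difference between the genotypes has no replicate check and a difference between lines or cultures cannot be told apart from one between genotypes.

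Tet enzymes oxidise 5-methylcytosine, and the oxidised bases are removed by repair or diluted at replication. Dnmt1, guided by Uhrf1, copies methylation to the new strand, and Dnmt3a and Dnmt3b add it to unmethylated DNA. Bisulfite sequencing reads 5-methylcytosine and 5-hydroxymethylcytosine alike, so the WT level includes both. Tet1 RNA had 15.06 FPKM (fragments scaled to transcript length and library size) in WT and 4.36 in TetTKO, Tet2 had 14.86 and 4.13, and Tet3 had 0.32 and 0.27. Dnmt3a had 14.71 and 30.26 FPKM and Dnmt3b 66.85 and 149.25. Dnmt1 had 59.75 and 65.82 FPKM and Uhrf1 109.17 and 71.78. All 8 embryonic stem cell markers checked lay between 18.1 and 3211 FPKM in WT and between 16.3 and 3344 in TetTKO. The 6 fibroblast or feeder markers summed to 1.56 FPKM in WT and 2.33 in TetTKO. Lum was listed at 0 in both libraries, and Thy1 had 1.29 FPKM in WT, the highest value, and 0.96 in TetTKO. Col1a1, Col1a2, Col3a1 and Dcn were higher in TetTKO, with Col3a1 at 0.08 and 0.74. The 5 primitive endoderm markers summed to 1.96 FPKM in WT and 7.25 in TetTKO. The 5 trophoblast markers summed to 34.1 and 60.5, mostly Krt8 and Krt18, with Elf5 at 0 and 0.02. The part of such cells in the methylation differences was not tested.

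Of the members within 1 kb of a gene end, those with the largest losses lay at the 5′ ends of Zfp951, Zfp629 and Sh2d4b, so the RefSeq sequences at the annotated starts of these genes are shown first. Each runs from 250 bases before to 50 bases after a start in build GRCm38.p6, 5′ to 3′ on the gene's own strand. CpG dinucleotides, the kind of site that was measured, are in capitals. Only CpGs with at least 5 reads in both libraries were listed, so a capital pair need not have a value. All of these genes lie on the minus strand. The deposited windows are on mm9, so coordinates of these sequences and of the windows are not interchangeable, and which listed CpG is which capital pair was not determined. For Zfp629 RefSeq gives 3 starts, and which of them the mm9 interval uses was not determined, so each is shown.
Zfp951, chr5:104859978-104860277: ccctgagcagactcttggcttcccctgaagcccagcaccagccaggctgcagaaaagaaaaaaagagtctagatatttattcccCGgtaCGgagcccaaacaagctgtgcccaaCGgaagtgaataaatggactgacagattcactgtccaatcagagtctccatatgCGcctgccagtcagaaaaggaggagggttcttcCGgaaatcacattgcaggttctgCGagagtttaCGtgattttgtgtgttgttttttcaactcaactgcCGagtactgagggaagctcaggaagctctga
Zfp629, chr7:127614384-127614683: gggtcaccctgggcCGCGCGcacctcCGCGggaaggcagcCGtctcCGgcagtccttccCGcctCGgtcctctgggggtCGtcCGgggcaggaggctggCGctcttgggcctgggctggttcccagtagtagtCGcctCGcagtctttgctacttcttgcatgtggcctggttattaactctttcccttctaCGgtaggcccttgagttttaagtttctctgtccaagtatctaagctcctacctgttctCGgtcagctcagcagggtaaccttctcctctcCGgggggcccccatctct
Zfp629, chr7:127614818-127615117: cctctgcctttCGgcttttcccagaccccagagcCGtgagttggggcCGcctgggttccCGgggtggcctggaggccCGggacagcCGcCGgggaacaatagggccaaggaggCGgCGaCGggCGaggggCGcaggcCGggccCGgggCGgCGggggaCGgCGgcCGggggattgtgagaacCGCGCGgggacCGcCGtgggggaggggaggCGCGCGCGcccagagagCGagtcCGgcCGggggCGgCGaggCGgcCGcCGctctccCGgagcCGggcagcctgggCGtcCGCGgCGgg
Zfp629, chr7:127615223-127615522: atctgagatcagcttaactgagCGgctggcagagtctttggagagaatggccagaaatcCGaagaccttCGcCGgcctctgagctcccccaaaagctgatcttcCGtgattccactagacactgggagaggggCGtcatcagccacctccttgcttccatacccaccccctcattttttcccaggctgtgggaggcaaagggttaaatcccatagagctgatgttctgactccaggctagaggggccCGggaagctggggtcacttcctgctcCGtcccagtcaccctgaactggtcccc
Sh2d4b, chr14:40893265-40893564: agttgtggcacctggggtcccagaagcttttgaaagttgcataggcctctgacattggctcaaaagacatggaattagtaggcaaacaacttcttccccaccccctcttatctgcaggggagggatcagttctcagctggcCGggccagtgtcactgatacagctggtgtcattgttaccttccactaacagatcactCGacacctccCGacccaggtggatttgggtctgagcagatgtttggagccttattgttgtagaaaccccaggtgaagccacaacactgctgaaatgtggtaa
The Zfp951 sequence holds 8 CpGs, a count reached by 48.7% of the 32851 promoter sequences of the same length in the table, whose median is 7. A second Zfp951 start, at chr5:104860019-104860318, has an overlapping sequence, also with 8. The Zfp629 starts hold 17, 42 and 8 CpGs. The 42 CpGs are reached by 3.03% of the promoters. The Sh2d4b start holds 3. These starts therefore span CpG-poor and CpG-dense sequence.

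Over all members, methylation averaged 84.2% in WT and 50.1% in TetTKO, with medians of 86.9% and 53.8%. The eligible windows had medians of 80.4% and 74.5%. Most losses were close to the threshold. The difference was between 30 and 35 points in 269 members, between 35 and 40 in 48, between 40 and 50 in 18 and over 50 in 13. The 5 members nearest the threshold on the inside differed by -30.03 to -30.004 points and the 5 windows nearest on the outside by -29.99 to -29.98. Windows on both sides of the threshold started from similar levels, at 73.0 to 92.0% in WT inside and 68.3 to 96.5% outside.

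The members spread over a wide range of end levels. In 57 of them TetTKO stood under 40%, and in 27 under 25%. Only 0.0646% of eligible windows stood under 25% in TetTKO. The 57 windows under 40% had a median of 67.5% in WT and 26.3% in TetTKO, while the other 291 had 88.2% and 55.4%. Of the 845 CpGs in the 57 windows, 52.3% were under 25% methylated in TetTKO, against 5.21% in WT. Of the 3454 CpGs in the other windows, 79.8% lay between 25 and 75% in TetTKO and 6.66% under 25%. In the 57 windows another 45.8% of CpGs lay between 25 and 75%. Lower CpG levels in the 57 follow from the split itself, and the value of 40% was chosen after the levels were seen.

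**Figure D1:**
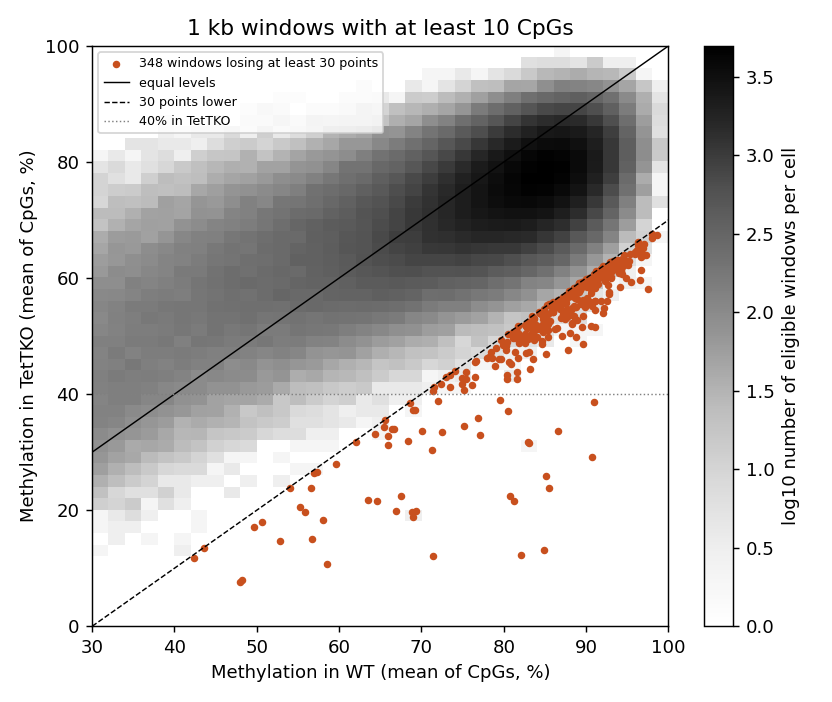
Mean methylation of each member window in WT (x axis, %) and TetTKO (y axis, %), as orange points over the eligible windows in grey (log10 number per cell of 2 by 2 points). Most of the 348 members lie near the 30-point line at 80 to 100% in WT, and 57 lie under 40% in TetTKO.

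Members were CpG-poorer than eligible windows and no deeper in coverage. They held a median of 11 CpGs against 12, and 59.8% of them held 10 or 11 CpGs against 39.6% of eligible windows. Their median coverage was 8.4 reads per CpG in WT and 9.57 in TetTKO, against 8.9 and 10.1. A median member rested on 96.5 WT reads and 110.5 TetTKO reads. Relative coverage differed with the TetTKO level. The median ratio of TetTKO to WT reads was 1.29 in the 57 windows under 40%, 1.10 in other members and 1.13 in eligible windows. By size of loss it was 1.45 over 50 points, 1.28 from 40 to 50, 1.10 from 35 to 40 and 1.14 under 35. The part of these shifts in the levels was not tested. No member passed 3 times the median WT coverage per CpG, and only 0.075% of eligible windows did.

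Within members the loss was shared by nearly every CpG. Of 4299 CpGs in members, 4044 were lower in TetTKO, or 94.1%, and 58.8% were lower by at least 30 points. Over eligible windows 54.2% of CpGs were lower and 9.90% by 30 points. Every CpG was lower in 156 members, and every CpG was lower by 30 points in 4. These within-window shares follow from the selection rule and describe how the selected differences were made up.

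Outside the windows the difference was smaller, and it was smallest in the CpGs farthest from the border of those given here. CpGs up to 100 bp beyond a window's border differed by -13.3 points over 568 CpGs, those at 250 to 500 bp by -7.26 and those at 500 to 1000 bp by -4.41. Whole neighbouring windows of at least 3 CpGs that were not members differed by -7.44 points on the lower-coordinate side (n = 295, SD over windows 12.9) and by -8.52 on the other (n = 300, SD 10.9), beside -4.11 and -4.10 for the neighbours of eligible windows. Most members were highly methylated in WT, and neighbours of eligible windows with at least 80% in WT differed by -5.82 on either side. All windows of at least 3 CpGs differed by -6.07 on average. At this minimum of 3 CpGs, the members' neighbours were nearer to these values but still lower. The SD describes the spread of single windows and not the error of a mean, and the gap was not tested. Reads can span a border, so the nearest CpGs are not fully separate from those of the window.

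The 57 windows under 40% had wider surroundings of lower methylation than the other members. Their neighbours differed by -14.6 points on the lower-coordinate side (n = 43, SD 14.5) and by -15.4 on the other (n = 41, SD 11.7), and at 2 windows away by -11.1 and -13.8. Neighbours of the other 291 members differed by -6.23 and -7.43 points, and by -3.18 and -5.30 at 2 windows away. In WT the adjacent windows of the 57 stood at 67.0% and 61.8%, under the 75.2% of those next to eligible windows. The other members stood above their neighbours in WT, at 87.4% beside 74.5% on the lower-coordinate side. The rule chose these windows by the difference itself, and there was no second library in which to measure it again.

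**Figure D2:**
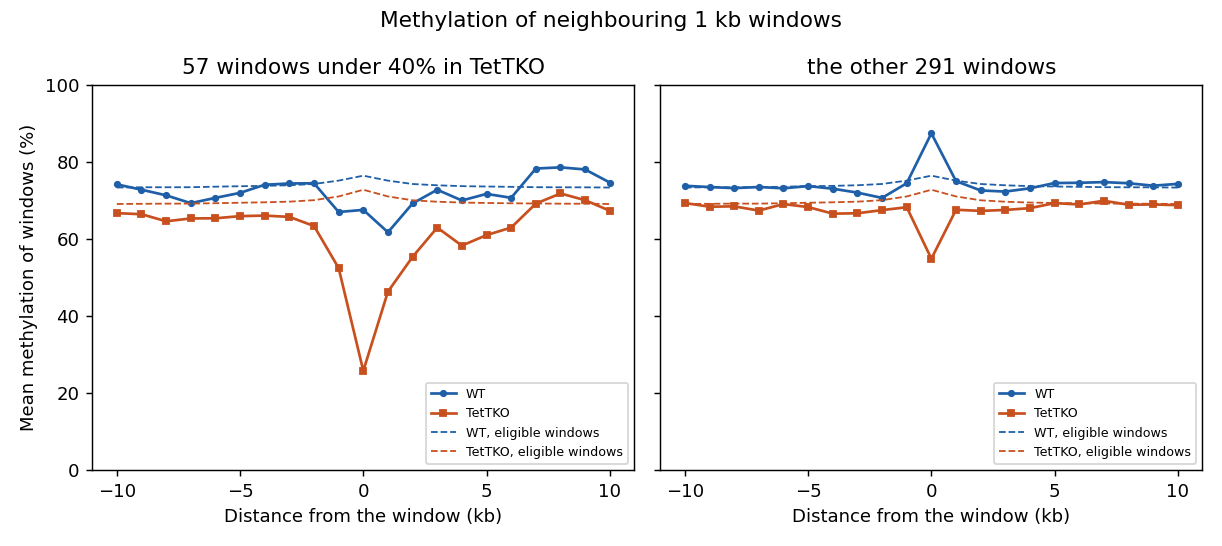
Mean methylation (%) of 1 kb windows by distance in kb from the 57 members under 40% in TetTKO (left) and the other 291 members (right), for WT (blue) and TetTKO (orange), with eligible windows and their neighbours as dashed lines. Windows that are members were left out at distances other than 0, and the dip on the left is broader than the single-window drop on the right.

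Most members had no other member within 10 kb. Members were 0.0909% of eligible windows, and the share in clusters expected from that density was not computed. With members at most 10 kb apart joined, 321 were single and 27 (7.76%) fell into 11 clusters, with 10 pairs of directly adjacent windows. By 1 Mb bin, 245 bins held 1 member, 39 held 2, and 7, 5 and 4 members were the highest counts, on chromosomes 16, 18 and 5. As a share of eligible windows, members ran from 0.0605% on chromosome 7 to 0.164% on chromosome 16. Chromosome 6 was the chromosome with more reads per CpG in WT than in TetTKO, 12.0 against 10.1, and held 22 members, 0.0846% of its eligible windows.

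The 2 members with the largest loss were adjacent and covered the 5′ end of Zfp951, a zinc finger gene on chromosome 5 (mm9 interval 105242187 to 105289087, minus strand). The window at 105289000 to 105289999 holds that end. Its 14 CpGs averaged 82.1% in WT and 12.3% in TetTKO. Of its reads, 80.3% of 122 carried methylation in WT, with an exact 95% interval of 72.2 to 87.0. In TetTKO it was 15.3% of 150, with an interval of 9.98 to 22.1. These intervals cover counting error only, and a read counts once for each CpG it covers. The window at 105288000 to 105288999, just inside the gene, had 84.9% in WT and 13.2% in TetTKO over 15 CpGs. The lowest of its 15 CpGs in WT stood at 60% and the highest in TetTKO at 25%, so the libraries did not overlap at any CpG there.

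Beside this pair the difference was smaller. The 2 listed CpGs of the next window inside the gene, at 105287000 to 105287999, averaged 90% and 67.9%, and the 2 of the next window upstream 100% and 47.0%. From 105291000 to 105291999, 10 CpGs stood at 83.8% in WT and 77.3% in TetTKO. Zfp951 RNA had 4.09 FPKM in WT and 31.24 in TetTKO, the largest relative difference among host genes that passed 1 FPKM. Another member, at 105199000 to 105199999, lay 42188 bp outside the other end of the gene, with 85.1% and 46.9%.

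Zfp629, another zinc finger gene (chromosome 7, 134750549 to 134757947, minus strand), had a member 53 bp upstream of its 5′ end. The 15 CpGs at 134758000 to 134758999 averaged 68.9% in WT against 18.9% in TetTKO. The pooled reads gave 71.1% of 90 (60.6 to 80.2) and 20% of 120 (13.3 to 28.3). The 14 CpGs of the next window upstream stood at 76.9% and 61.1%, and the window inside the gene had 7 CpGs at 89.6% and 69.3%. Zfp629 RNA had 0.15 FPKM in WT and 1.11 in TetTKO. On the log2(FPKM + 1) scale that is a difference of 0.88, short of 2-fold because of the pseudocount of 1. Zfp629 was named after its values were seen.

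Sh2d4b encodes a protein with an SH2 domain (chromosome 14, interval end at 41706254, minus strand). The member over its 5′ end, at 41706000 to 41706999, had 68.9% in WT and 19.7% in TetTKO over 15 CpGs. Upstream of it, a stretch was already low in WT. The next window had 32.0% in WT and 21.0% in TetTKO and the one after it 28.9% and 27.2%, so in TetTKO the low stretch reached over the 5′ end. Downstream, inside the gene, the adjacent window had 62.6% and 41.0%. Sh2d4b RNA had 0.14 FPKM in WT and 0.44 in TetTKO, under 1 FPKM in both.

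**Figure D3:**
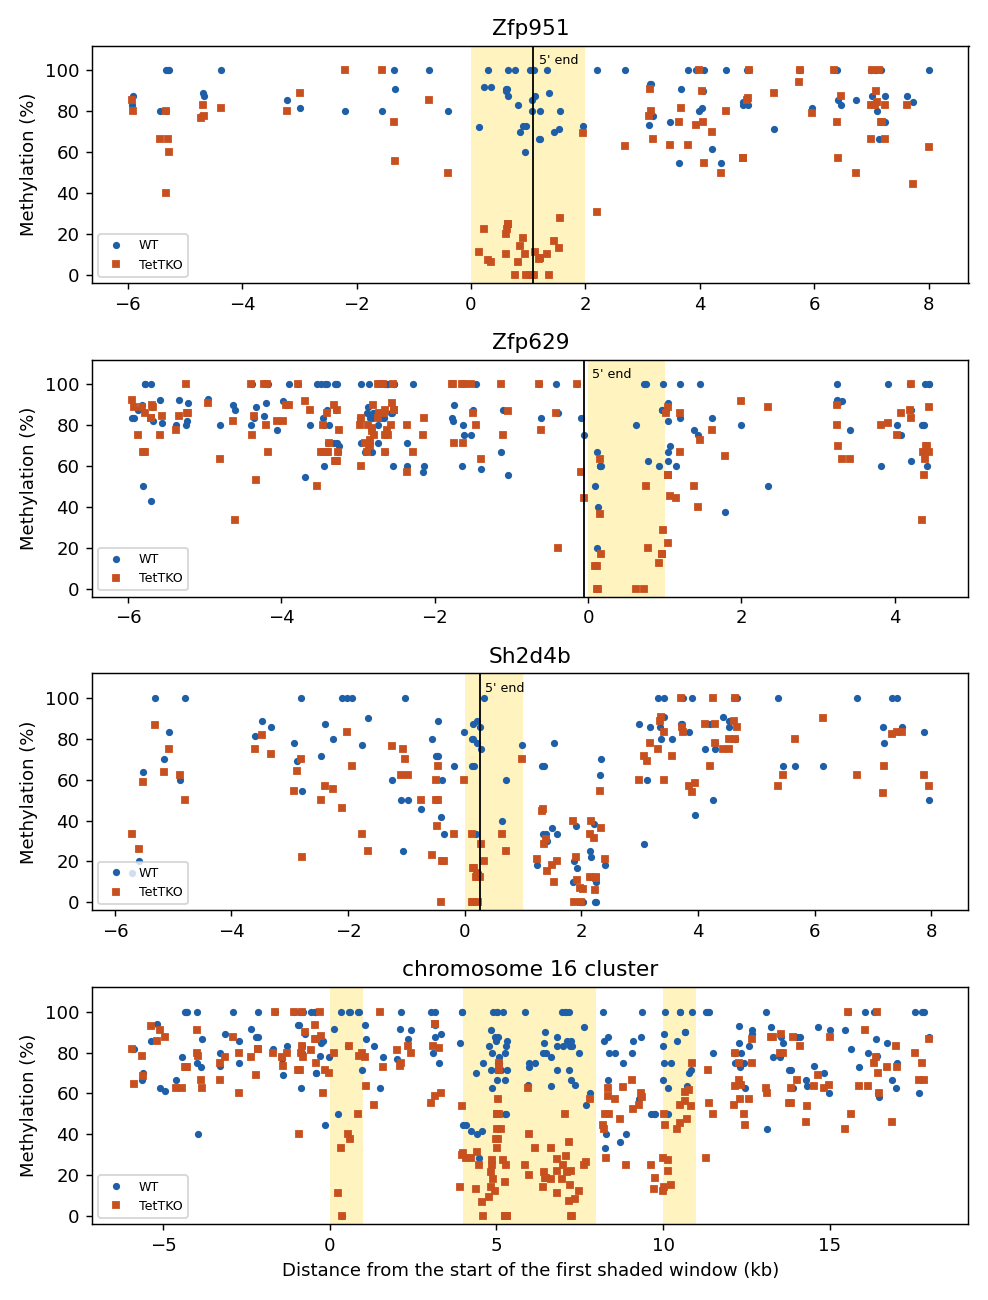
Methylation (%) of each listed CpG in WT (blue circles) and TetTKO (orange squares) around 4 places, by distance in kb from the start of the first member window. Shaded bands are member windows and black lines are 5′ ends of genes. At Zfp951 the TetTKO values in the shaded pair lie between 0 and 69.2%, most of them near the bottom of the axis.

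The largest cluster lay between genes on chromosome 16, from 18007000 to 18017999. It held 6 members with 89 CpGs, at 77.8% in WT and 31.7% in TetTKO on average. Of the 4 adjacent windows from 18011000 to 18014999, the WT levels were 66.8%, 77.1%, 81.2% and 80.7%. The TetTKO levels, in the same order, were 19.9%, 33.0%, 21.6% and 22.4%. The windows between them and the member at 18017000 were lower as well, by 17.7 and 29.5 points, without passing the rule, and the 4 CpGs after that member had 95% and 51.4%. At 18006000 to 18006999, just before the cluster, the levels were 84.1% and 79.3%, and at 18020000 to 18020999, after it, 75.5% and 73.4%. The nearest gene on one side was Vpreb2, a pre-B cell receptor chain gene listed at 0 FPKM in both libraries, at 25827 bp. On the other side was Dgcr6, 34954 bp from the last member, with 13.89 FPKM in WT and 10.35 in TetTKO.

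The alpha protocadherin genes on chromosome 18, which encode neuronal adhesion proteins from alternative first exons, held the second cluster. Their intervals are nested in the deposited files, so 1 window lies in several of them. The 3 adjacent members from 37127000 to 37129999 had 94 CpGs, 78.2% methylated in WT and 43.3% in TetTKO. The first of these, with 39 CpGs the member with the most, holds the lower-coordinate end of the Pcdha6 interval and had 56.7% and 15.0%. The next had 87.0% and 55.4%, so the lowest level was at the end of the interval. With 2 further members at 37160000 and 37778000, 5 of the 166 eligible windows in clustered protocadherin genes were members, or 3.01%, where 0.0909% of all eligible windows were. Of these 5, 3 are adjacent. RNA of the 10 host entries of this locus was at most 0.03 FPKM in either library.

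Other adjacent pairs lay far from 5′ ends. On chromosome 19, the pair from 16109000 to 16110999 had 78.5% in WT and 18.0% in TetTKO over 25 CpGs, 23598 bp from C130060C02Rik. A pair at 31188000 to 31189999 within Prkg1, a cGMP-dependent kinase gene with 0.07 and 0.15 FPKM, had 81.6% and 31.3%. On chromosome 3, a pair at 129363000 to 129364999, 15494 bp from the growth factor gene Egf, had 84.1% and 28.8%. The larger loss of that pair rested on 83 WT and 180 TetTKO reads, the highest read ratio among members, at 2.17. On chromosome 16, windows at 20474000 and 20479000 near Eif2b5 averaged 76.0% and 34.0%, and their TetTKO reads were likewise above their WT reads, at 461 against 237. A pair of members at 130390000 to 130392999 on chromosome 5, 2849 bp from 4930579G22Rik, averaged 56.9% in WT and 38.0 points less in TetTKO, and an adjacent pair at 112258000 to 112259999 on the same chromosome 89.7% and 59.1%. Among single members the largest losses were within Lrrc8d, an anion channel subunit gene (chromosome 5, 106161000 to 106161999, 90.9% and 38.6%), and within Fgf14 (83.1% and 31.6%).

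Of the members with the most CpGs outside the protocadherin genes, the first lay on chromosome 14. The window at 52054000 to 52054999 on chromosome 14 had 38 CpGs at 88.9% in WT and 52.8% in TetTKO, 15443 bp from the vomeronasal receptor gene Vmn2r88. A window at 34142000 to 34142999 on chromosome 6 had 32 CpGs at 83.9% and 51.9%. The window at 97929000 to 97929999 on chromosome 11, 13869 bp from Fbxl20, had 26 CpGs at 47.9% and 7.65%, the lowest TetTKO level of any member.

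The share of members in gene intervals was under that of eligible windows on this grid. Of the 348, 158 overlapped an interval, or 45.4% (exact 95% interval 40.1 to 50.8), against 56.7% of eligible windows. On a grid shifted by 500 bp the share was 52.1% of 388 members, so the share of members depended on where windows were cut. The share of eligible windows on that grid was not computed. The counting interval covers counting error and treats windows as independent, which neighbours are not. Within 1 kb of an end of a gene lay 23 members, or 6.61% (4.24 to 9.75), and 7.41% of eligible windows, so the counting interval held the background. By size of loss, 3 of the 13 members over 50 points, 2 of 18 between 40 and 50, 4 of 48 between 35 and 40 and 14 of 269 under 35 lay within 1 kb of an end. The 3 at the top are the Zfp951 pair and the Zfp629 window. The size classes were used by the rule, so this order is a description.

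Besides these, members within 1 kb of a 5′ end with a known strand were few. The window over the 5′ end of Osta, an organic solute transporter gene on chromosome 16, had 90.5% in WT and 55.9% in TetTKO, with 0.01 and 0.36 FPKM. The window 507 bp upstream of Mest, a paternally expressed imprinted gene on chromosome 6, had 81.8% and 46.2%, with 6.35 and 10.62 FPKM. Windows near the starts of Il3ra, an interleukin receptor gene, and Chadl had 76.5% and 43.0%, and 78.6% and 46.2%. Il3ra RNA had 1.44 and 2.29 FPKM and Chadl 1.6 and 1.58. Gm949 on chromosome 18, whose strand was not determined, had a member over an end of its interval with 68.3% and 31.9% and RNA of 1.37 and 4.37 FPKM. Apart from Chadl, these genes had more RNA in TetTKO. Within 1 kb of a member at either end, 12 genes passed 1 FPKM. Of these, 2, Zfp951 and Gm949, were at least 2-fold higher in FPKM + 1, as were 1.68% of all genes.

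The families of genes are given by their members among their eligible windows. Zinc finger genes held 3 members among 3132 eligible windows, the Zfp951 pair and 1 within Zfp322a. The list of Hox and other developmental regulators held 2 of 1504, in the forkhead genes Foxk1 and Foxo3. The homeobox gene Pbx3, a host gene with 1 member, was not on that list. Neural adhesion and synapse genes held 3 of 3920, of which 2 lay in the receptor phosphatase gene Ptprt. Imprinted genes held 2 of 843. One was in Trappc9 and the other in Peg10, a retrotransposon-derived imprinted gene on chromosome 6, where 21 CpGs stood at 43.6% in WT and 13.5% in TetTKO. A list of 30 germline genes had 0 of 196, olfactory and vomeronasal receptors 0 of 308 and 2-cell genes 0 of 2. Sohlh1, a germ cell transcription factor gene outside that list and named after its value was seen, held 1 member 483 bp from an end of its interval, with 90.4% and 58.4%. Beside the background of 0.0909% of eligible windows, these counts are too small to rank the families.

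Host genes, those whose interval a member overlaps, numbered 159, and 80 of them (50.3%) had at least 1 FPKM in either library. Their median log2 difference, as log2((TetTKO + 1)/(WT + 1)), was 0.15, against -0.01 over all 10590 such genes of chromosomes 1 to 19. In TetTKO 8 of the 80 were higher by 2-fold or more and 0 were lower by as much, where 1.68% of all genes were 2-fold higher and 0.831% 2-fold lower. Of the 80, 56 were higher by any amount, or 70%, against 48.7% of all genes. Among the 77 with at least 1 FPKM in WT, which could move either way, 53 were higher and 8 of them 2-fold. Of all 10093 genes with at least 1 FPKM in WT, 46.2% were higher and 1.23% at least 2-fold. There is no test across genes here, since each genotype had 1 RNA library.

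Length of the gene moved with this difference. Host genes had a median interval of 97.3 kb against 15.7 kb for all genes, and the part of length in the RNA differences was not tested. All genes with intervals of at least 50 kb had a median log2 difference of 0.09, and 62.1% of them were higher in TetTKO. Host genes of that length had a median of 0.15, with 68% higher. At least 2-fold higher were 5 of 50 such host genes and 1.57% of all such genes. The nearest genes within 10 kb of intergenic members had 18 of 29 higher and 0 past 2-fold in either direction. Host genes of windows that gained 30 points had a median of -0.01, with 48.1% higher.

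The 8 host genes past 2-fold differed in where their member lay. Besides Zfp951 and Gm949, the member was within the interval and 12827 bp or more from either end. Prom1, which encodes the membrane protein CD133, had 2.41 FPKM in WT and 8 in TetTKO, with a window at 94.9% in WT that was lower by 34.9 points. Ptpn14, a tyrosine phosphatase gene, had 1.22 and 4.82 FPKM, with 92.3% and 59.5%. Aass, a lysine degradation enzyme gene on chromosome 6, had 4.55 and 11.59 FPKM, with 66.4% and 34.0%. Inadl, a tight junction scaffold gene, had 1.4 and 4.15 FPKM, with 91.5% and 59.0%. Sfmbt2, a Polycomb-group gene, had 7.95 and 17.66 FPKM, with 90.8% and 58.8%. Ak4, a mitochondrial adenylate kinase gene, had 19.5 and 41.26 FPKM, with 85.4% and 49.9%. In these 6 genes the loss lay between 31.9 and 35.5 points, near the rule's threshold, whereas at Zfp951 it reached 71.7 points.

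Other host genes had smaller RNA differences. Lrrc8d, with a loss of 52.3 points inside its interval, had 3.12 FPKM in WT and 2.04 in TetTKO. Unc13b, a synaptic vesicle priming gene with 2 members that lost at most 33.0 points, had 3.34 and 3.81 FPKM, and Ptprt 0.06 and 0.18. The host genes with the highest WT levels were close in both libraries. Esco2, a cohesin acetyltransferase gene, had 101.22 and 88.6 FPKM, Farsb, a tRNA synthetase subunit gene, 95.53 and 80.37, Ppp1r8 77.63 and 80.23, Cnn3 77.26 and 98.4, and the translation initiation factor gene Eif3a 75.05 and 83.17. Tpd52, Dera, 2610528E23Rik, Ints10 and Pepd followed, from 33.63 to 51.31 FPKM in WT and from 32.55 to 62.81 in TetTKO. Of the 23 host genes of windows under 40% in TetTKO, 10 had at least 1 FPKM, of which 9 were higher and 3 at least 2-fold, where 48.7% of all genes were higher and 1.68% at least 2-fold. This subset rests on the 40% chosen after the levels were seen. The third of these, beside Zfp951 and Gm949, was Aass.

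**Figure D4:**
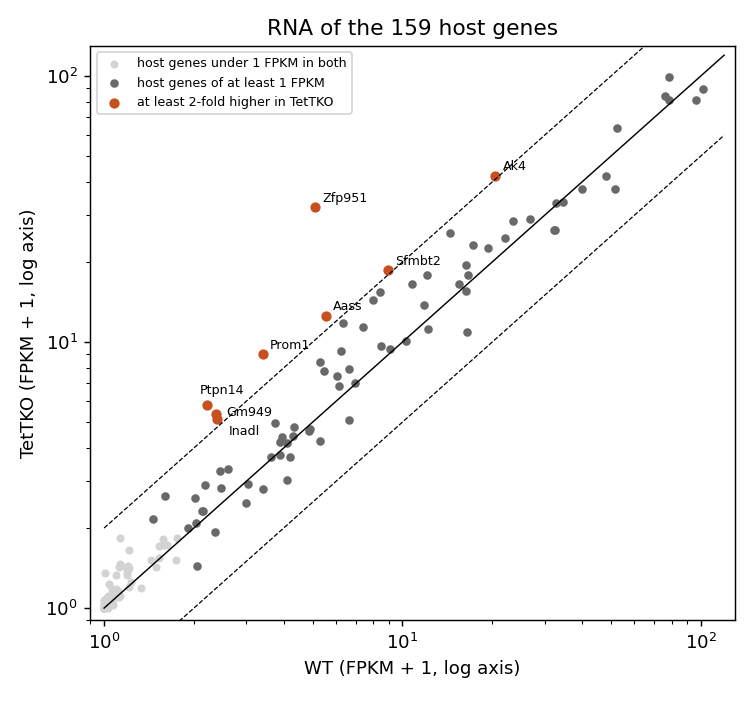
RNA of the 159 host genes in WT and TetTKO as FPKM + 1 on log axes, with equal levels as a solid line and 2-fold differences as dashed lines. The 8 named genes lie past the upper dashed line, and Zfp951 at 4.09 and 31.24 FPKM stands farthest from the line. In FPKM + 1, no host gene is at least 2-fold lower.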

How the data were processed

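Whole-genome bisulfite and RNA-seq libraries, 1 each per genotype, were compared. Trim Galore, Bismark 0.7.9, Bowtie, SAMtools, TopHat2 2.0.2, Cufflinks 2.0.2 and mm9 are listed, without settings, by the submitters' processing notes. The deposited methylation files give per CpG a fraction and the counts of methylated and all reads. Both list the same 14323377 CpGs with at least 5 reads, with 131671740 WT and 148888474 TetTKO read calls on chromosomes 1 to 19 and median coverages of 9 and 10. The deposited FPKM files give symbols and intervals without strand, and their read depth is unknown, so FPKM carries no counting interval.

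A window is the file position divided by 1000, rounded down, and its level the mean CpG percentage. FPKM values of a repeated symbol were added up, and 6 genes of short RNAs were not used. Symbols were matched to RefSeq (GRCm38.p6) for strand, for 16730 of 21478 symbols and none on chromosome 18, too few for a share of 5′ ends, so shares use both interval ends. Exon and intron were not determined. Intervals are exact 95% binomial. Python 3.11.15, numpy 2.4.6, pandas 2.3.3 and scipy 1.17.1 were used. The windows, gene lists and rules were chosen with earlier results of these data known. Named by rule were the 10 largest losses, the 5 with the most CpGs and the 5 largest over a gene end. So were clusters, windows at the threshold, and host genes and genes within 10 kb past 2-fold. The 10 most expressed host genes and those with 2 or more members were also included. Items outside these rules, among them Mest, Il3ra, Chadl, Pbx3 and Fgf14, are not all marked where they are named.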

Additional observations from a re-analysis of the deposited data

How the results depend on the processing

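The 348 members were 322 with pooled reads, 388 on a grid shifted by 500 bp and 326 without chromosome 6. The count was 7677 with a minimum of 5 CpGs, 54 with 15, 2001 at 25 points and 31 at 40, and 118 when centred on the median window difference. With at least 10 reads per CpG in both libraries it was 4, of 26054 windows that still had 10 CpGs. Windows higher by the same rule, 4579, were 8122 with 5 CpGs, 2104 with 15, 8978 at 25 points, 897 at 40, 7246 when centred and 328 with 10 reads. Median coverage was 9 and 10 reads per CpG. The share in gene intervals was 39.1% with 5 CpGs, 35.5% at 40 points, 52.1% on the shifted grid and 75% of the 4 windows with 10 reads. The matching shares of eligible windows were not computed for these settings, so these values give no gap to a background. The share in clusters was 20.4% with 15 CpGs, 32.3% at 40 points, 12.7% when centred, 4.64% on the shifted grid and 0% with 10 reads. The mean difference of adjacent windows, -7.93 points, was -14.1 with 15 CpGs and -18.0 at 40 points. It was -9.04 on the shifted grid and -10.3 when centred. With 10 CpGs per neighbour it was -5.28 over 208 windows, and all windows of at least 10 CpGs averaged -2.2. The neighbours of eligible windows were not computed at that minimum. The median of host genes was 0.50 with 15 CpGs, 0.26 at 40 points (4 genes) and 0.26 when centred. In the other 12 alternatives run for that median, it moved by at most 0.1 from the main value of 0.15. It was 0.08 with 5 CpGs (999 genes) and 0.10 at 25 points (481 genes). Without a filter on low values it was 0.06, and with 10 reads 0.06 (3 genes), so its size depended on the setting. The pseudocounts of 0.1 and 5 FPKM gave 0.19 and 0.09. Chosen after seeing the data, leaving out Zfp951 gave 0.15 and requiring 1 FPKM in WT gave 0.15. No value changed sign. Causes were not tested. No paired analysis was possible because each group had 1 library.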
